A study of Homo sapiens with 5 samples.

Results

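Human chromosome 19 carries 240 protein-coding genes whose symbol is ZNF followed by a number, and the SF-1 peaks in and around these genes are described here. They were found by their symbols among the 20163 protein-coding genes of the GENCODE annotation on the hg19 build. The other 1240 protein-coding genes of chromosome 19 served as the comparison group, and 236 genes with the same kind of name on other chromosomes as a further one. Names with a letter at the end, and zinc finger genes under other names, stayed with the other genes. A peak was assigned to a gene when its centre lay within 1 kb of the gene start, in the last coding exon, or elsewhere in the gene body, in that order.

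Steroidogenic factor-1 (SF-1, encoded by NR5A1) is a nuclear receptor that switches on steroid hormone genes in the adrenal cortex and gonads. Its binding was mapped by sequencing of immunoprecipitated chromatin (ChIP-seq). The cells, H295R/TR SF-1, derive from the human adrenocortical tumor line H295R and make additional SF-1 when given doxycycline. Cells carried the inducible SF-1 at both dosages and were kept without doxycycline (basal SF-1) or with it for 3 days (overexpressed SF-1). Chromatin of each dosage was precipitated with 2 antibodies against SF-1, called Millipore and Perseus as in the labels, which gave 4 peak lists. Each list was called on 3 pooled libraries against the same 2 input libraries, so there was 1 list per group and no replicate error. Cells given doxycycline without the inducible SF-1 were not analysed here, and an effect of the drug and one of the SF-1 dosage cannot be told apart. No p-value was computed. The 95% intervals cover counting error over genes or peaks only, and neighbouring genes that share a peak are not independent.

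The lists held 4393 peaks for Millipore at basal SF-1, 11910 for Millipore at overexpressed SF-1, 6616 for Perseus at basal SF-1 and 7453 for Perseus at overexpressed SF-1. Chromosome 19 held 185, 797, 422 and 502 of them, respectively. The median peak was 149 bp wide in every list. The lists give a rank in place of a height, where 1 is the first peak of a list, and the quantity ranked on is not stated. The read depth behind each list is unknown.

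ZNF proteins of the C2H2 type bind DNA through a row of fingers, each a short loop folded around a zinc ion. In most of these genes the fingers lie side by side in the last coding exon, joined by a conserved linker, while earlier exons often encode a KRAB domain that recruits the corepressor TRIM28 and silences chromatin. Many of the genes arose by local duplication and stand in rows along chromosome 19. SF-1 reads DNA as a monomer, through an AAGG core with a preferred extension on its 5′ side.

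A finger pattern was present in each of the 239 members whose coding length could be read in frame, with a median of 12 and at most 36 fingers, and 228 members had at least 5. In ZNF274 the coding length in the lifted annotation was not a multiple of 3, and its fingers were not counted. The last coding exon had a median of 3296 bp in members against 716 bp in other chromosome 19 genes, of which 1522 and 163 bp were coding. Words of the finger linker, searched as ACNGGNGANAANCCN on both strands, occurred in the coding part of the last exon in 207 of 240 members (86.2%, interval 81.3 to 90.0%) and in 25 of 1196 other genes that have such an exon (2.09%).

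The following peaks show what the SF-1 lists held at these genes. The first lies wholly in the finger-coding exon of ZNF835, at chr19:57175901-57176049 on the minus strand of hg19, in the Millipore list at overexpressed SF-1. Its capitals mark the linker word that joins adjacent fingers.
ZNF835: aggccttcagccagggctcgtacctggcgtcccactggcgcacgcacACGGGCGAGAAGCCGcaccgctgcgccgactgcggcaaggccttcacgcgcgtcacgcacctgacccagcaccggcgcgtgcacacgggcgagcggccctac
The next, at chr19:56660301-56660599 on the plus strand, lies in an intron of ZNF444 and comes from the same list. Capitals mark the SF-1 consensus, which was searched on both strands as TCAAGGTCA, TCAAGGTCG, TCAAGGCCA, TCAAGGCCG, CCAAGGTCA, CCAAGGTCG, CCAAGGCCA and CCAAGGCCG, and it occurred 5 times on the opposite strand in a tandem repeat.
ZNF444: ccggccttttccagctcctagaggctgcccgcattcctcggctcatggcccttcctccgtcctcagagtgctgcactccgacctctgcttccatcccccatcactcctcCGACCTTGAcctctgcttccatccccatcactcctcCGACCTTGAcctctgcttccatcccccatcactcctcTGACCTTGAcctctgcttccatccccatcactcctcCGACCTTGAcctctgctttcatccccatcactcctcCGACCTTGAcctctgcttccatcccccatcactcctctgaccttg
The last 3 lie near gene starts, outside annotated exons, and come from the Perseus list at basal SF-1. They are chr19:12163901-12164049 at ZNF878, chr19:58326351-58326499 at ZNF552 and chr19:58237951-58238049 at ZNF671, all on the minus strand, with the single SF-1 consensus of each in capitals.
ZNF878: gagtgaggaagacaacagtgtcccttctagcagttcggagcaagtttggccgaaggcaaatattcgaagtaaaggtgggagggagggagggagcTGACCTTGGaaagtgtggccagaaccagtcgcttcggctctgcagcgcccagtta
ZNF552: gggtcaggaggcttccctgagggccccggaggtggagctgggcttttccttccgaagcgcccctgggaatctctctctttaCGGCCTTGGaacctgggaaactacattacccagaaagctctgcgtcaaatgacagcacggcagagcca
ZNF671: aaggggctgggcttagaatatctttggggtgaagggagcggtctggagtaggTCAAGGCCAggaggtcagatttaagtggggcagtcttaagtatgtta
The peaks printed for ZNF444, ZNF878, ZNF552 and ZNF671 were chosen after their values were seen, as examples that hold the consensus.

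Near the gene start, the share of ZNF genes with a peak differed from that of other chromosome 19 genes by no more than counting error in each of the 4 lists. At basal SF-1 the Millipore antibody gave a start peak in 2 of 240 members (0.833%, interval 0.229 to 2.99%), against 1.77% of other chromosome 19 genes and 1.02% of all protein-coding genes. At overexpressed SF-1 the same antibody gave 34 members (14.2%, 10.3 to 19.1%), against 12.5% of the other genes and 8.19% of all protein-coding genes. The Perseus antibody gave 31 members at basal SF-1 (12.9%, 9.25 to 17.8%), against 12.8% and 9.56%. At overexpressed SF-1 it gave 35 members (14.6%, 10.7 to 19.6%), against 12.8% and 10.5%.

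The difference between members and other chromosome 19 genes was -0.941 percentage points for Millipore at basal SF-1 (interval -2.02 to 1.29), 1.67 at overexpressed SF-1 (-2.65 to 6.93), 0.0941 for Perseus at basal SF-1 (-4.07 to 5.23) and 1.76 at overexpressed SF-1 (-2.62 to 7.08). All 4 intervals held 0. Within 500 bp of the start, the Millipore list at overexpressed SF-1 gave 29 members, and the difference was 4.10 points (0.200 to 9.03). ZNF genes on other chromosomes had a start peak in 1.27%, 11.4%, 14.0% and 14.8% of genes in the same order of lists. With each list limited to its 4393 best-ranked peaks, the members with a start peak numbered 2 and 14 for Millipore and 24 and 24 for Perseus at basal and overexpressed SF-1. At that length the differences from other chromosome 19 genes were -0.941 (interval -2.02 to 1.29) and 1.08 points (-1.61 to 4.94) for Millipore. For Perseus they were 0.323 (-3.32 to 5.02) and 0.565 points (-3.07 to 5.26), and every interval held 0.

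**Figure D1:**
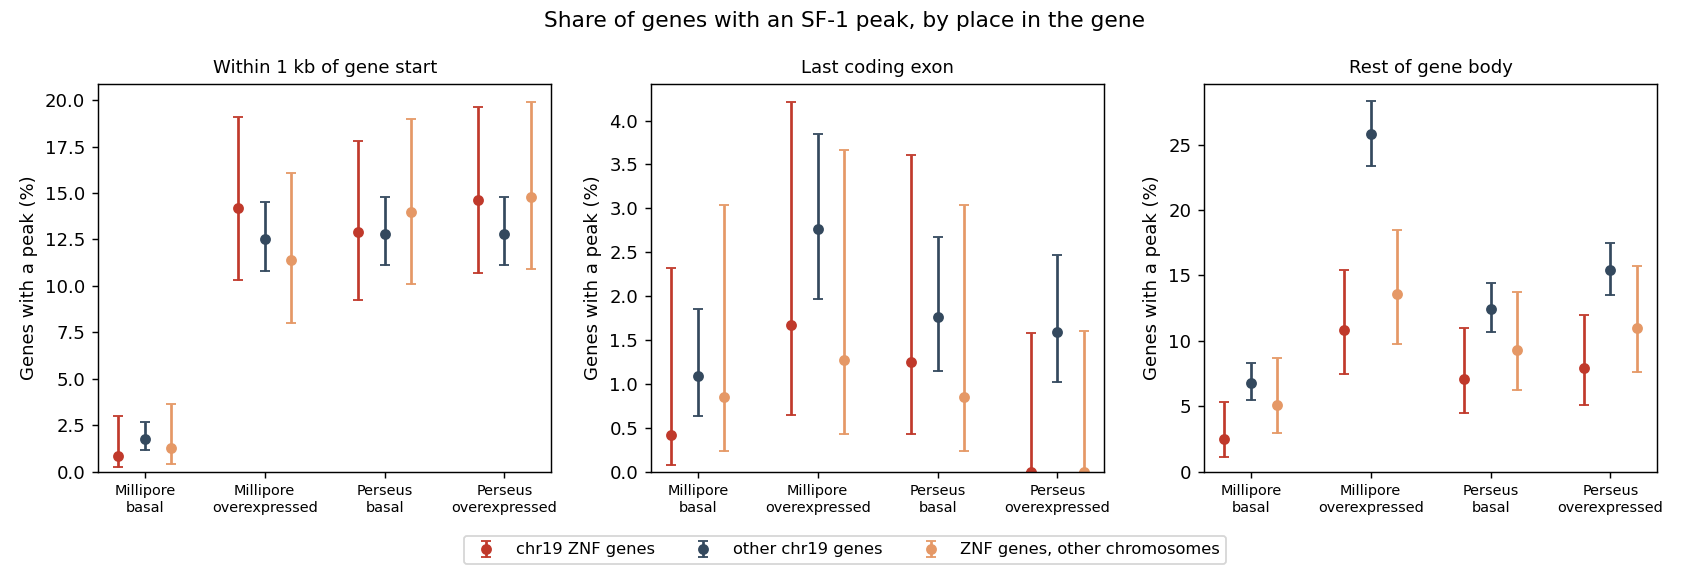
Percent of genes with a peak within 1 kb of the start, in the last coding exon or in the rest of the gene body (y axis), by peak list (x axis), for chr19 ZNF genes, other chr19 genes and ZNF genes on other chromosomes. Points are shares and bars 95% Wilson intervals. The groups lie close together at the start, whereas chr19 ZNF genes lie below other chr19 genes in the rest of the body, as at 10.8% against 25.8% in the Millipore list at overexpressed SF-1.

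Over the 4 lists, 76 of 240 members (31.7%) had a start peak in any list, against 333 of 1240 other genes (26.9%). Of these members, 54 had it in 1 list, 18 in 2 lists, 4 in 3 lists and 0 in all 4. Of the 333 other genes, 212 had it in 1 list, 83 in 2 lists, 35 in 3 lists and 3 in all 4. The 4 members found in 3 lists were ZNF550, ZNF146, ZNF302 and ZNF473, each in all lists but Millipore at basal SF-1.

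ZNF550, a ZNF gene on the minus strand at chr19:58046625-58071231, had the best-ranked member start peak in the Millipore list at overexpressed SF-1, at rank 80. It ranked 94 in the Perseus list at overexpressed SF-1 and 747 in that at basal SF-1. The peaks together spanned chr19:58070501-58071199 in an intron, centred 281 to 406 bp downstream of it, and all 3 held the SF-1 consensus. ZNF146, whose protein is made almost wholly of fingers, had a start peak at rank 136 in the Perseus list at basal SF-1, 860 at overexpressed SF-1 and 3386 in the Millipore list at overexpressed SF-1. These peaks lie inside an intron of ZNF565, which runs on the opposite strand, so the same peaks count for the body of ZNF565. None of the 3 held the SF-1 consensus.

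At ZNF302 a start peak ranked 4674 in the Millipore list at overexpressed SF-1, 884 in the Perseus list at overexpressed SF-1, and 1279 and 5127 for a pair of peaks at basal SF-1. ZNF473, a protein known for its part in histone pre-mRNA processing, had a start peak at rank 1487 in the Millipore list at overexpressed SF-1, 4257 in the Perseus list at basal SF-1 and 6190 at overexpressed SF-1. The first and last of these lay in a UTR exon, 329 and 304 bp downstream of the start, and the other at -271 bp, upstream of it. ZNF805 had the best-ranked member start peak in the Perseus list at basal SF-1, at rank 111, with rank 387 at overexpressed SF-1, and both peaks held the SF-1 consensus. ZNF888 ranked 533 in the Millipore list and 6056 in the Perseus list at overexpressed SF-1. The peaks at ZNF888 lay 473 and 723 bp downstream of the start and did not overlap.

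**Figure D2:**
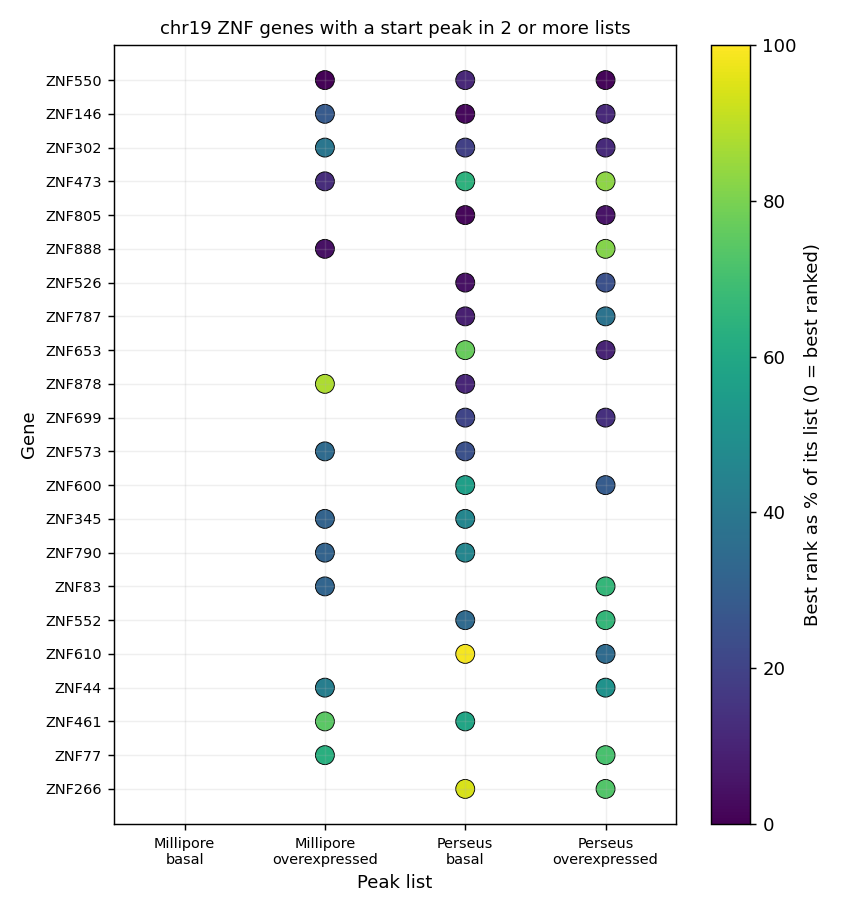
The 22 chr19 ZNF genes with a peak within 1 kb of the start in at least 2 lists (rows), by peak list (columns). A circle marks a start peak and its colour the rank of the best such peak as a percent of its list, with 0 the best ranked. The column of Millipore at basal SF-1 is empty, and 13 genes carry a circle in both Perseus columns.

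The genes with a start peak were compared between dosages and between antibodies. For Millipore, 0 of the 2 members with a start peak at basal SF-1 were among the 34 at overexpressed SF-1, beside 7 of the 22 other chromosome 19 genes (31.8%). For Perseus, 13 members had a start peak at both dosages, which was 41.9% of those at basal and 37.1% of those at overexpressed SF-1, beside 44.7% and 44.7% in other genes. At overexpressed SF-1, 8 members had a start peak with both antibodies, which was 23.5% of the Millipore and 22.9% of the Perseus members, beside 37.4% and 36.5% in other genes. At basal SF-1, 0 of the 2 Millipore members were among the 31 Perseus members, beside 6 of the 22 other genes with a Millipore start peak (27.3%). The Wilson interval for 0 of 2 reaches 65.8%, so neither count of 0 shows a difference from other genes. All lists were called against the same input, and the overlaps are given as description.

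Both members with a start peak in the Millipore list at basal SF-1 stood in 1 row of genes between ZNF575 and ZNF296. ZNF227 had its peak 175 bp downstream of the start at rank 1728. ZNF404 had its peak at -413 bp, upstream of the start, at rank 3489, with 2 further peaks in its introns at ranks 998 and 1354. None of these held the SF-1 consensus, and no peak of that list in a member overlapped a member peak of the other Millipore list (0 of 12 and 0 of 64, by at least 1 bp). In other chromosome 19 genes 28 of 115 basal Millipore peaks (24.3%) overlapped one at overexpressed SF-1. The Wilson interval for 0 of 12 reached 24.2%. The Perseus lists shared 17 member peaks, 30.9% of 55 at basal and 29.8% of 57 at overexpressed SF-1, against 41.9% and 34.7% in other genes. At overexpressed SF-1 the antibodies shared 9 member peaks, 14.1% of 64 Millipore and 15.8% of 57 Perseus peaks, against 13.7% and 21.9% in other genes. At basal SF-1 they shared 0 of 12 Millipore (interval 0 to 24.2%) and 0 of 55 Perseus member peaks (0 to 6.53%). In other genes the shares were 27.0% (19.7 to 35.7%) and 10.3% (7.35 to 14.2%), and the first pair of intervals overlapped.

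The position of the start peaks relative to the gene varied between lists. For Perseus at overexpressed SF-1, 30 gene and peak pairs lay downstream of the start and 8 upstream, with a median distance of 276 bp on either side. At basal SF-1 the same antibody gave 16 and 16 pairs and a median of 258 bp. Millipore at overexpressed SF-1 gave 21 downstream and 13 upstream, with a median of 216 bp. In other chromosome 19 genes the Perseus list at overexpressed SF-1 also held more pairs downstream, 103 against 71, and at basal SF-1 87 against 80. A few peaks counted for a pair of neighbouring starts. ZNF790 and ZNF345, which start from the same region in opposite directions, shared such a peak in the Millipore list at overexpressed SF-1 and in the Perseus list at basal SF-1, both with the SF-1 consensus, and ZNF580 and ZNF581 shared one in the former list.

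**Figure D3:**
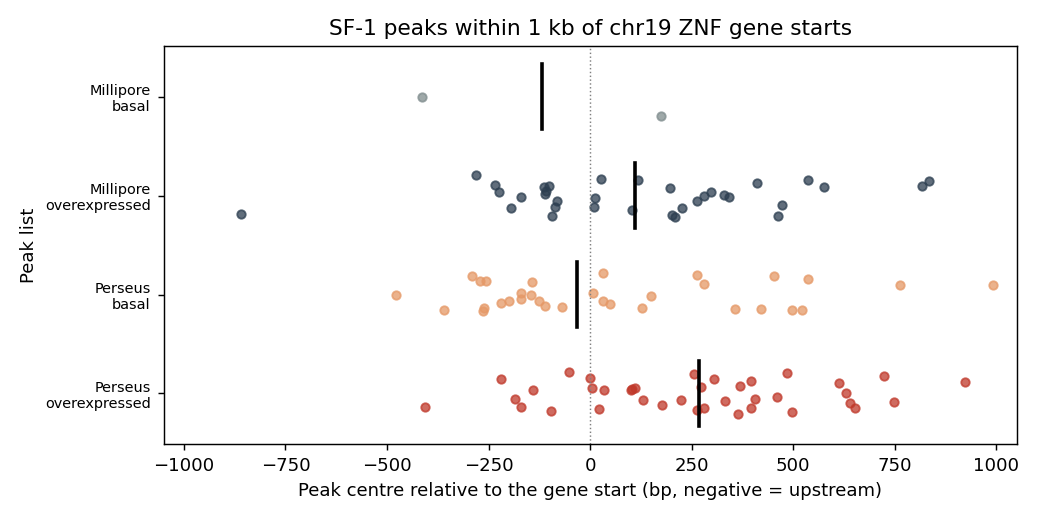
Distance of each peak centre from the start of the chr19 ZNF gene it was assigned to (x axis, bp, negative values upstream), by peak list (y axis). Each point is a gene and peak pair, spread vertically for visibility, and black bars are medians. The points for Perseus at overexpressed SF-1 lie mostly downstream, 30 against 8, and those for Perseus at basal SF-1 are even, 16 against 16.

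The last coding exon, which holds the fingers in most members, rarely held a peak, as in protein-coding genes as a whole. It did in 1 member for Millipore at basal SF-1 (0.417%), in 4 at overexpressed SF-1 (1.67%), in 3 for Perseus at basal SF-1 (1.25%) and in 0 of 240 at overexpressed SF-1, which allows a share of up to 1.25% at 3 counts and 1.58% by the Wilson interval. Other chromosome 19 genes had 1.09%, 2.76%, 1.76% and 1.59% in the same order, and all protein-coding genes with such an exon 0.474%, 1.74%, 0.631% and 0.661%. ZNF genes on other chromosomes had 0.847%, 1.27%, 0.847% and 0%, and the intervals of all 4 differences between members and these genes held 0. The differences from other chromosome 19 genes were -0.670 (interval -1.51 to 1.29), -1.09 (-2.58 to 1.57), -0.506 (-1.74 to 1.93) and -1.59 percentage points (-2.47 to 0.0865), and all 4 intervals held 0.

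The exon is longer in ZNF genes, so peaks were also counted per Mb of exon. ZNF genes on other chromosomes were not counted per Mb. Members had 1.14 last-exon peaks per Mb for Millipore at basal SF-1 (exact Poisson interval 0.0289 to 6.37) against 7.34 in other chromosome 19 genes (3.52 to 13.5). At overexpressed SF-1 they had 3.43 (0.707 to 10) against 22.7 (15.5 to 32.3), and the intervals did not overlap. For Perseus at basal SF-1 they had 3.43 (0.707 to 10) against 13.2 (7.83 to 20.9), with overlapping intervals. At overexpressed SF-1 they had 0 (0 to 4.22) against 12.5 (7.26 to 20), without overlap. A peak that was in the start window of one member and the last exon of another was counted once here, at the start. Words of 32 bases that occur more than once in hg19 made up a median of 12% of the member exons and 0% of the others, and whether reads from such sequence were lost in mapping was not tested.

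**Figure D4:**
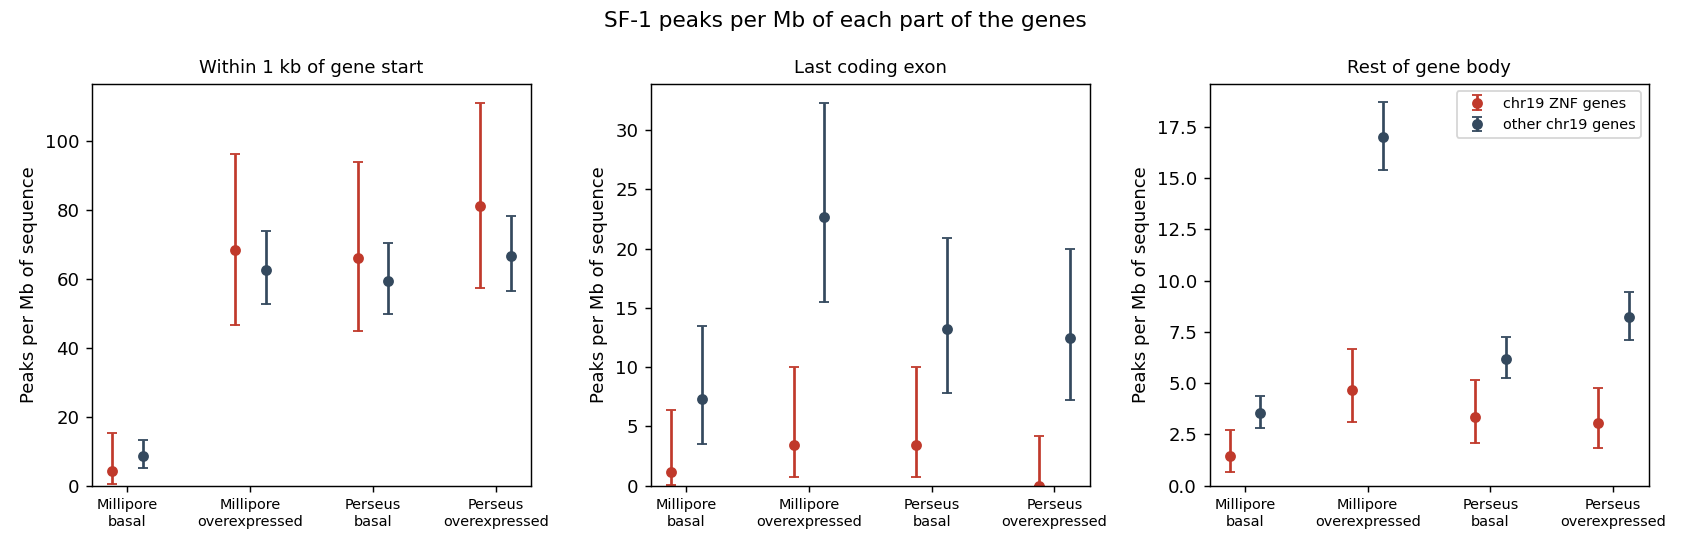
Peaks per Mb of sequence (y axis) in the start windows, last coding exons and remaining gene bodies of chr19 ZNF genes and other chr19 genes, by peak list (x axis). Points are rates and bars exact 95% Poisson intervals. In the last coding exon and the rest of the body the ZNF genes lie below the other genes in all 4 lists, as at 4.66 against 17.0 peaks per Mb of body in the Millipore list at overexpressed SF-1.

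The 8 last-exon peaks fell in 8 different genes, each in a single list. In 5 of them the centre lay in the UTR part of the exon, and in 3 in the coding part. The coding ones were all in the Millipore list at overexpressed SF-1, at ZNF875 (rank 726), ZNF835 (rank 7352) and ZNF837 (rank 9422). Linker words were present in 2 of the 8 peaks, and 2 peaks, at ZNF835 and ZNF875, lay wholly in coding sequence. The UTR ones were at ZNF324 (rank 9125) in the same list, at ZNF446 (rank 1131) in the Millipore list at basal SF-1, and at ZNF146 (rank 2357), ZNF701 (rank 4473) and ZNF530 (rank 4837) in the Perseus list at basal SF-1. The peak at ZNF324 is also counted at the start of its neighbour ZNF446. The SF-1 consensus was in the peaks at ZNF146 and ZNF530 and in none of the other 6.

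In the rest of the gene body, ZNF genes held peaks less often than other chromosome 19 genes in all 4 lists. For Millipore, 6 members had such a peak at basal SF-1 (2.50%, interval 1.15 to 5.35%) against 6.77% of other chromosome 19 genes and 8.52% of all protein-coding genes. At overexpressed SF-1 there were 26 members (10.8%, 7.5 to 15.4%) against 25.8% and 18.9%. For Perseus, there were 17 at basal SF-1 (7.08%, 4.47 to 11.0%) against 12.4% and 10.6%, and 19 at overexpressed SF-1 (7.92%, 5.13 to 12%) against 15.4% and 12.1%. The differences from other chromosome 19 genes were -4.27 (interval -6.32 to -1.16), -15.0 (-19.1 to -9.83), -5.34 (-8.60 to -1.01) and -7.49 percentage points (-11.0 to -2.95). For Perseus at basal SF-1 the interval held 0 when only the better-ranked 50% of each list was used, at -3.25 points (-5.72 to 0.335), and when every list had the length of the shortest, at -3.45 (-6.26 to 0.457).

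Members had a median gene length of 25452 bp and the other genes one of 13985 bp. The part of length in the lower share was not tested. Per Mb of body, members held 1.45 peaks for Millipore at basal SF-1 (exact Poisson interval 0.661 to 2.74) against 3.54 (2.83 to 4.37), and 4.66 at overexpressed SF-1 (3.12 to 6.69) against 17.0 (15.4 to 18.7). For Perseus they held 3.37 at basal SF-1 (2.09 to 5.16) against 6.18 (5.23 to 7.25), and 3.05 at overexpressed SF-1 (1.84 to 4.77) against 8.23 (7.13 to 9.46). The intervals of members and other genes did not overlap in any of the 4 lists. Against ZNF genes on other chromosomes the intervals of all 4 differences held 0, with -2.58 (-6.42 to 0.983), -2.73 (-8.70 to 3.21), -2.24 (-7.35 to 2.79) and -3.10 percentage points (-8.51 to 2.23) for members minus these genes.

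ZNF536, a gene of neural tissue and the longest member at 488696 bp, was the only member with a body peak in all 4 lists. Among other chromosome 19 genes, 24 of 1240 had one in all 4 lists. ZNF536 held 14 peaks summed over the lists, and some of these overlap between lists. The body had 3 in the Millipore list at basal SF-1, 3 at overexpressed SF-1, 5 in the Perseus list at basal SF-1 and 2 at overexpressed SF-1, and the last peak was at its start in the Perseus list at overexpressed SF-1, at rank 7411. The best ranked was at 1266, in an intron, in the Millipore list at overexpressed SF-1. The last coding exon of its model has 5 coding bases, so its fingers lie elsewhere in the gene. ZNF473 had 3 body peaks, of which the best ranked 696, in introns in the Millipore list at overexpressed SF-1 and none in the others.

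ZNF444, which pairs a SCAN domain with fingers, had 2 intronic sites that were each present in all lists but Millipore at basal SF-1. The site with the tandem SF-1 consensus printed above ranked 2504 in the Millipore list at overexpressed SF-1, and 2302 and 3640 in the Perseus lists at basal and overexpressed SF-1. The peaks there consisted of repeated 32-base words to 66.0%, 84.3% and 55.7%, respectively. The other site lay nearer the start, at chr19:56652301-56652649, and ranked 1104, 519 and 4285 in that order of lists. Only the widest of its peaks, from Perseus at basal SF-1, held the consensus.

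Its neighbour ZNF787 had an intronic site at chr19:56622001-56622299 in the same 3 lists, at ranks 4622, 3100 and 560, none with the consensus. A further peak at its start ranked 576 in the Perseus list at basal SF-1 and 2828 at overexpressed SF-1. ZNF83 had body peaks in these 3 lists as well, all in introns. The Perseus lists shared the peak at chr19:53192201-53192349. The Millipore peak, at chr19:53105051-53105199, lay directly beside the other Perseus peak at basal SF-1, at chr19:53104951-53105049, without overlap. The ZNF83 body peaks ranked 3568 in the Millipore list at overexpressed SF-1, 4529 and 4526 in the Perseus list at basal SF-1 and 1158 at overexpressed SF-1. At ZNF586 the body peaks of the Perseus lists, at ranks 2271 and 4950, were those at the start of ZNF552, which the long model of ZNF586 spans. ZNF875 had a body peak at rank 760 in the Perseus list at overexpressed SF-1, far from its coding peak with Millipore.

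Member peaks held the SF-1 consensus more often than sequence beside them, apart from Millipore at basal SF-1. It occurred in 1 of 12 member peaks for Millipore at basal SF-1 (8.33%, interval 1.49 to 35.4%), in 8 of 64 at overexpressed SF-1 (12.5%, 6.47 to 22.8%), in 14 of 55 for Perseus at basal SF-1 (25.5%, 15.8 to 38.3%) and in 9 of 57 at overexpressed SF-1 (15.8%, 8.54 to 27.4%). Windows of the same width 5 kb to either side held it in 0%, 0%, 0.909% and 1.75%. The peaks of other chromosome 19 genes held it in 27.8%, 12.5%, 27.6% and 21.0%, and these values lie within the members' intervals. A match is a run of letters and not a measured site.

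The start windows of ZNF genes held the consensus less often than those of other genes. It was in 30 of 240 member windows of 1 kb to either side of the start (12.5%, interval 8.90 to 17.3%) and in 252 of 1240 other windows (20.3%, 18.2 to 22.7%). In the Perseus list at basal SF-1, 11 of the 31 member windows with a peak held it (35.5%, 21.1 to 53.1%), against 19 of the 209 without (9.09%, 5.90 to 13.8%). For Millipore at overexpressed SF-1 the shares were 26.5% (14.6 to 43.1%) and 10.2% (6.76 to 15.1%), and for Perseus at overexpressed SF-1 20% (10 to 35.9%) and 11.2% (7.59 to 16.3%). The intervals overlapped in these last 2 lists. In these 3 lists windows with a peak also had a higher GC content, with medians of 54.5%, 55.1% and 54.5% against 51.6%, 51.6% and 51.9% for Millipore at overexpressed SF-1 and Perseus at basal and overexpressed SF-1. For Millipore at basal SF-1 the medians were 43.3% for the 2 windows with a peak and 52.2% for those without. Other chromosome 19 windows with a peak were also higher in both measures, as in the Perseus list at basal SF-1, with a median GC content of 60.5% against 57.8% and the consensus in 30.8% against 18.8%. The part of GC content in the peak calls was not tested.

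Along the chromosome, members fell into 16 blocks separated by gaps of more than 1 Mb between starts. The share of members with a start peak in any list was 16.2% (6 of 37, interval 7.65 to 31.1%) in the block from ZNF101 to ZNF254 beside the centromere, and 40.4% (23 of 57, 28.6 to 53.3%) in the last block, from ZNF628 to ZNF446, next to the telomere. The intervals overlapped slightly. The start windows consisted of repeated words to a median of 21.7% in the former block and 5.08% in the latter, and the part of these repeats was not tested. The block from ZNF653 to ZNF490 had 11 of 25 members (44%), with a median of 11.9% repeated words. That from ZNF175 to ZNF331 had 10 of 39 (25.6%), with 14.0%, and that from ZNF575 to ZNF296 8 of 24 (33.3%), with 1.62%. The block from ZNF146 to ZNF573 had 9 of 24 members (37.5%), with 6.78%. The order of these blocks by share was not their order by repeated words. In the block from ZNF146 to ZNF573 the start peaks came from Millipore at overexpressed SF-1 in 8 genes, from Perseus at basal SF-1 in 6 and from Perseus at overexpressed SF-1 in 1.

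**Figure D5:**
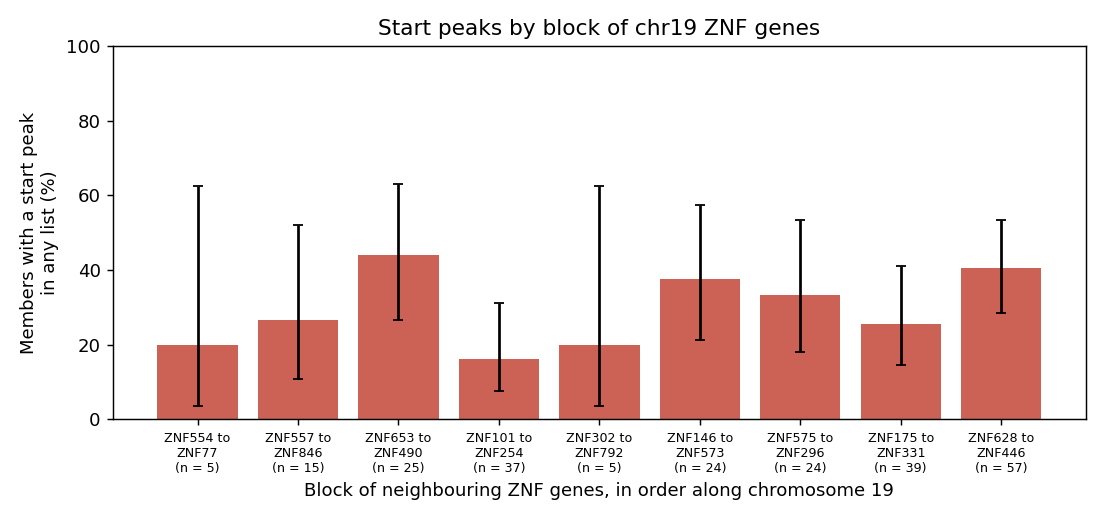
Percent of members with a peak within 1 kb of the start in any list (y axis), for each block of at least 5 neighbouring chr19 ZNF genes in order along the chromosome (x axis, named by its first and last gene). Bars are shares and whiskers 95% Wilson intervals. The block from ZNF101 to ZNF254 has 16.2% and the last block 40.4%.

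Of 25 genes for the partners of KRAB zinc finger proteins and for silent chromatin, 1 had a start peak in the Millipore list at basal SF-1, 3 at overexpressed SF-1, 5 in the Perseus list at basal SF-1 and 5 at overexpressed SF-1. DNMT3A, a DNA methyltransferase, had one in all 4 lists. The Perseus list at basal SF-1 also had TRIM28, the KRAB corepressor, and SETDB1, the histone H3K9 methyltransferase that it recruits, together with CBX1 and ATF7IP. CBX1, a heterochromatin protein, and ATF7IP, a partner of SETDB1, had a start peak in both Perseus lists. A last-exon peak was found for CBX5 alone, in the Perseus list at overexpressed SF-1, and body peaks for 2, 6, 4 and 7 of the 25 genes in the order of lists used above. The start counts were 4%, 12%, 20% and 20% of the 25 genes, beside 1.02%, 8.19%, 9.56% and 10.5% of all protein-coding genes, and the body counts 8%, 24%, 16% and 28%, beside 8.52%, 18.9%, 10.6% and 12.1%. The share over all genes lay within the Wilson interval of the 25 genes in each of these start and body counts except body peaks in the Perseus list at overexpressed SF-1 (28%, 14.3 to 47.6%). For last-exon peaks in the same Perseus list, 1 of the 25 genes had one (4%, 0.710 to 19.5%). Among all protein-coding genes with such an exon the share was 0.661%, just below this interval, which rests on 1 gene. In each of the other lists 0 of 25 had one (0 to 13.3%), and the share over all genes lay within the interval. The 25 genes were chosen with results known, and nothing particular to them is drawn from the counts.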

How the data were processed

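ChIP-seq peaks of SF-1 in H295R/TR SF-1 cells were analysed as deposited, with samples grouped by antibody and dosage from the labels. Per the methods of the study, reads were mapped to hg19 with ELAND. Peaks were called with CisGenome on triplicate samples of each dosage, with input DNA as the control. The sample records give 3 pooled libraries for each list and 2 for the input, and the submitters' processing notes also name CASAVA 1.6. The deposited values used are positions and a rank. Read counts were not used here. The deposited score and strand were the same for every peak and carry no measurement. Starts lay on a 50 bp grid. The libraries in a pool are not separated, so the replicate spread is unknown.

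Gene models came from GENCODE 44 mapped to GRCh37, the start was the 5′ end of the gene, and the last coding exon that of the canonical transcript, marked for 237 of 240 members. Shares carry 95% Wilson intervals, differences Newcombe intervals, and rates exact Poisson intervals. Counting errors treat genes or peaks as independent. For 0 of all members the limit of 3 counts is given beside the Wilson limit. Named genes were the members with a peak of the same class in at least 3 lists, those of the 2 best-ranked peaks of each class and list, and the 5 with most peaks; further genes beside a small count or a printed sequence were chosen after their values were seen. Members, lists and tests were chosen with earlier results of these data known. The alternatives covered the start distance, the transcript, the peak's centre or overlap, ranks, list length and the comparison genes. Placement was tested on simulated peaks in start windows and last coding exons of 200 of the 240 member genes, where 200 of 200 planted peaks were recovered. No peak was planted in the rest of the gene body. The positions came from the same gene models, so this checks the code only. Python 3.11.15, numpy 2.4.6, scipy 1.17.1, pysam 0.24.0, biopython 1.88, matplotlib 3.10.9 and samtools 1.23.1 were used.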

Additional observations from a re-analysis of the deposited data

Results flagged for a closer look

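The number of members with a peak in the last coding exon moved in opposite directions with dosage for the antibodies. It was 1 at basal and 4 at overexpressed SF-1 with Millipore, and 3 at basal and 0 at overexpressed SF-1 with Perseus. With every list limited to its 4393 best-ranked peaks, the counts were 1 and 1 with Millipore and 1 and 0 with Perseus. Such counts are too small to show or exclude a change with dosage. In the full lists, the share of all protein-coding genes with such a peak went from 0.474% to 1.74% with Millipore and from 0.631% to 0.661% with Perseus. The difference between the antibodies was not tested, since each count comes from 1 pooled list.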

How the results depend on the processing

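Of 80 alternative values, 64 stayed within the limits set for them. These were the same direction and side of 0 for a difference, the main Wilson interval for a share of peaks with the consensus, and a factor of 1.5 for a count of shared peaks. The difference at the start, members minus other chromosome 19 genes, changed sign in several lists, with intervals that held 0 both before and after. With the better-ranked 50% of each list it was -0.820 points for Perseus at basal SF-1 and -0.148 at overexpressed SF-1. Counting any overlap gave -0.309 for Perseus at basal SF-1. Within 500 bp it was 0.0269 for Millipore at basal SF-1, and for Millipore at overexpressed SF-1 4.10 with an interval above 0. Within 2 kb it was -0.874 for Millipore at overexpressed SF-1, -1.40 for Perseus at basal and -0.712 at overexpressed SF-1. From the starts of all transcripts it was -0.659 for Millipore at overexpressed and -0.968 for Perseus at basal SF-1. In the gene body the interval came to hold 0 for Perseus at basal SF-1, at -3.25 with the better-ranked 50% and -3.45 with lists of equal length. In the last coding exon, the interval for Perseus at overexpressed SF-1 left out 0 at -1.84 with any overlap and at -2.09 with the last coding exon of any transcript, and the difference for Millipore at overexpressed SF-1 became 0.414 in the coding part alone. Member peaks shared by both antibodies at overexpressed SF-1 fell to 5 when at least 50% of both peaks had to overlap. Perseus peaks shared between dosages were 12 in place of 17 under that rule. With the last base of the SF-1 consensus free, it occurred in 8.33% and 18.8% of Millipore member peaks and 34.5% and 24.6% of Perseus member peaks at basal and overexpressed SF-1. The last of these is 14 peaks in place of 9. The cause of these changes was not tested. No paired analysis was possible because each list was called on pooled libraries and gives 1 value per group. The unknown depth of each list limits comparisons between lists, and no replicate could be left out.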
